A study of Mus musculus with 5 samples.

Results

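Polycomb repressive complexes 1 and 2 (PRC1 and PRC2) were followed through the transcripts of 9 of their subunits in mouse neurospheres with 1 targeted copy of Arid1b. The genes were chosen by symbol: Ezh1, Ezh2, Eed, Suz12 and Jarid2 for PRC2, and Cbx2, Cbx7, Bmi1 and Rnf2 for PRC1. Each symbol matched 1 row of a table of 54532 genes, and all 9 were among the 16411 genes tested. Heterozygous neurospheres (hGFAPCre+, Arid1b flox/+, 3 libraries) were compared with littermate control neurospheres (hGFAPCre+, Arid1b+/+, 2 libraries). All were C57BL/6, were taken from the hippocampus at P0, the day of birth, and were grown in FGF-2 and EGF at 20 ng/ml each until harvest on day 7. The Cre transgene, present in both groups, is driven by the human GFAP promoter, which is active in radial glia and the cells derived from them. Nothing in the labels ties each library to its own mouse, and p-values therefore cover only the spread among these libraries, some of which may be technical.

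PRC2 places methyl groups on lysine 27 of histone H3, and PRC1 places ubiquitin on histone H2A and compacts chromatin. Together they hold developmental genes silent, whereas the BAF remodelling complex, of which Arid1b is a subunit, opens chromatin and evicts Polycomb from it. In the developing brain Ezh2 belongs to dividing progenitors while Ezh1 persists in non-dividing and differentiated cells, and Bmi1 keeps neural stem cells self-renewing by silencing the Cdkn2a locus.

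No member passed the test over all genes, and 1 of the 2 control libraries set the size of the largest differences. At an adjusted p under 0.05 (limma, Benjamini-Hochberg over all tested genes), 0 of 9 members rose and 0 fell, beside 2.84% of all tested genes called in either direction. At an unadjusted p under 0.05, 4 members were lower (Ezh1, Cbx7, Jarid2 and Cbx2) and none was higher, beside 12.4% of all tested genes that were lower by the same rule. By that rule 4286 tested genes passed in either direction, of which 2029 were lower and the rest higher. For those 4 members all 3 heterozygous libraries lay below both controls, for Eed all 3 lay above, and the groups overlapped for Ezh2, Suz12, Bmi1 and Rnf2. Over all tested genes the groups did not overlap for 23.3% that were lower and 23.4% that were higher. The median log2 fold change was -0.07 over the 9 members and 0.01 over all tested genes. The members' median turned with the control left out, at -0.40 (control replicate 1) and 0.08 (control replicate 2). By edgeR's quasi-likelihood test on recovered reads 0 members passed, and by DESeq2 on the same reads 2 did, Ezh1 and Cbx7, both lower, beside 14.4% of genes called by DESeq2.

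**Figure D1:**
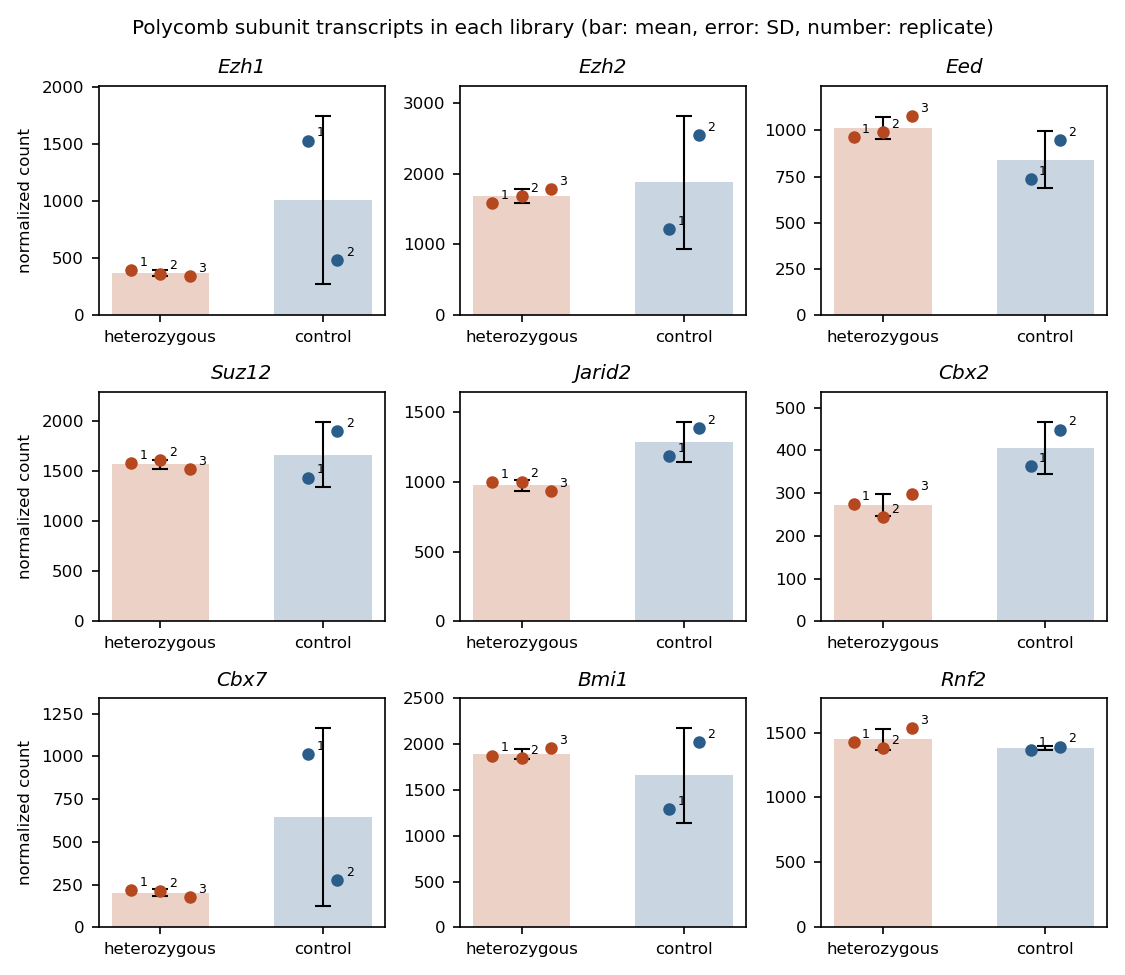
Normalized counts (y axis, from 0) of the 9 Polycomb subunits in each library, with heterozygous libraries left of controls; bars are group means, error bars SD (n = 3 and n = 2) and numbers beside points the replicate. Control replicate 1 stood above every other library for Ezh1 and Cbx7 and below every other library for Ezh2, Eed, Suz12, Bmi1 and Rnf2.

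The libraries held 19833803 to 25494722 recovered reads, and a member had between 184 and 2812 reads in a library. Arid1b itself, read first as the check of the labels, had 1102, 1145 and 1003 normalized counts in heterozygous libraries and 1510 and 1730 in controls, and its log2 fold change of -0.58 did not pass (limma adjusted p = 0.0701; edgeR adjusted p = 0.0634). It passed by DESeq2 on the recovered reads (adjusted p = 0.00730), in the authors' deposited table (adjusted p = 0.0200) and in limma with control replicate 1 (adjusted p = 0.00924) or control replicate 2 (adjusted p = 0.0106) left out, but not with any 1 heterozygous library left out (limma adjusted p = 0.244 to 0.290). The controls were unlike each other. The median of the absolute log2 difference between them was 0.446 over all tested genes, and the correlation across genes was 0.952 between the controls against 0.988 to 0.989 between heterozygous libraries. Sox2, a defining neural progenitor factor, was present in all 5 libraries, at 5611 to 6417 normalized counts in heterozygous libraries and 9615 and 9144 in controls. Heterozygous replicate 2 had 0 reads of the Y-linked gene Uty, which was read in the other 4 libraries. Reads of Uty show male cells but not whether a library held cells of 1 sex only.

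The start regions of Ezh1 and Cbx7 are shown because their transcripts had like profiles across libraries, and that of Ezh2 because this paralogue of Ezh1 differed the other way between the controls. Each run is the RefSeq promoter window on GRCm38.p6, from 250 bases before the annotated start to 50 after it, given 5′ to 3′ on the strand of the gene. Capitals mark an octamer of the E2F family, the factors that switch on genes for DNA replication; windows with no match are all in lower case. Ezh1 lies at chr11:101226414-101226713 (- strand), Cbx7 at chr15:79932597-79932896 (- strand) and Ezh2 at chr6:47594981-47595280 (- strand). The Cbx7 window covers an annotated start inside the gene, whose span on this strand begins at 79971119. That 5′ end of the Cbx7 gene was not searched. The Ezh2 window also lies inside its gene, whose span on this strand begins at 47595341. The Jarid2 windows lie inside a span that begins at 44729474. The 5′ ends of these gene spans were not searched either.

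Ezh1: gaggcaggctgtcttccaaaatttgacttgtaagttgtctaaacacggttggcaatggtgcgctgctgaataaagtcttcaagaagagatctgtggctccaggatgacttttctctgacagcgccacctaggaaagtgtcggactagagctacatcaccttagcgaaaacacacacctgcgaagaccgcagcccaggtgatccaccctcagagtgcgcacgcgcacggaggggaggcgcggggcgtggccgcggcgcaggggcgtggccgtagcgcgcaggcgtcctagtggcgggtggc

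Cbx7: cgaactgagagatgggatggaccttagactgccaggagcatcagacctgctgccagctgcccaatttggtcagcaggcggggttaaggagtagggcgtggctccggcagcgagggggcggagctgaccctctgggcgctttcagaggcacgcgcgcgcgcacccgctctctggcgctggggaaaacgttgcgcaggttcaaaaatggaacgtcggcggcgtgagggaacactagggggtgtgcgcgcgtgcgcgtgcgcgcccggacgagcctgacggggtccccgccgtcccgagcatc

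Ezh2: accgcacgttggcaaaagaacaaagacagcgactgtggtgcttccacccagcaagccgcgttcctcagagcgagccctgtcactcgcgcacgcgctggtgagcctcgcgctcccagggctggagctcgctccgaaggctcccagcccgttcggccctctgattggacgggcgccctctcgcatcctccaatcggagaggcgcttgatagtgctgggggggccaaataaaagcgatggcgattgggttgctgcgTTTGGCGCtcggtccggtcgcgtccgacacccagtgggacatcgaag

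The octamers TTTGGCGC, TTTCCCGC, TTTCGCGC and TTTGCCGC were searched on both strands, and 2.26% of 32851 promoter windows in the table held at least 1 of them. Ezh2 held TTTGGCGC beginning at base 4, counting the annotated start of its window, which lies inside the gene span, as base 1. Suz12 held TTTCCCGC beginning 219 bases before its start. Those bases are shown with their surroundings because Suz12 was the only other member with a match.

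Suz12: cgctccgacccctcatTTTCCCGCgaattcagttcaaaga

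None of the 4 octamers was found in the windows of Ezh1, Eed, Jarid2 (2 starts), Cbx7, Bmi1 or Rnf2, and Cbx2 was not among the windows. An octamer from the middle of the motif of the factor NRF1, CGCATGCG, was in 1.87% of all windows and in none of those of the members. The members' windows held 17 (Eed) to 41 (Suz12) CpG dinucleotides, against a median of 7 over all windows. Each octamer searched contains a CpG, so the shares over all windows are no like baseline for windows this rich in CpG. A match is a description of the letters and shows no binding, and the absence of one shows nothing about a factor.

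Ezh1 and Ezh2 encode the alternative methyltransferases of PRC2, and they differed in opposite directions between the controls. Ezh1 (ENSMUSG00000006920, chromosome 11 from 101191115 to 101226463, - strand, mm10) had 397, 368 and 344 normalized counts in heterozygous libraries, against 1534 in control replicate 1 and 488 in control replicate 2. Every heterozygous library lay below both controls, but control replicate 1 was 3.14 times control replicate 2, a wider gap than lay between control replicate 2 and any heterozygous library. Means were 370 ± 26.7 (SD, n = 3) in heterozygous libraries and 1011 ± 739 (SD, n = 2) in controls, a log2 fold change of -1.23 (95% interval -2.30 to -0.16, limma adjusted p = 0.153). With control replicate 1 left out the log2 fold change was -0.40 (limma adjusted p = 0.0982), and with control replicate 2 left out it was -2.05 (limma adjusted p = 5.6e-05). In these fits the single control left is assumed to vary like the heterozygous libraries.

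Ezh2 (ENSMUSG00000029687, chromosome 6 from 47530139 to 47595341, - strand) had 1580, 1682 and 1777 normalized counts in heterozygous libraries, against 1217 in control replicate 1 and 2539 in control replicate 2. The heterozygous libraries lay between the controls, which differed 2.09 times. The log2 fold change was -0.07 (95% interval -0.78 to 0.65, limma adjusted p = 0.897). It was -0.60 without control replicate 1 (limma adjusted p = 0.0113) and 0.46 without control replicate 2 (limma adjusted p = 0.00979), so the direction depended on which control was kept. Each of these calls rests on 1 control.

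The balance of the paralogues was read as a ratio of normalized counts per kb of exon, which allows levels of different genes to be compared. Ezh1 over Ezh2 was 0.226, 0.196 and 0.174 in heterozygous libraries, against 1.13 in control replicate 1 and 0.173 in control replicate 2. Ezh2 was thus several times the more abundant in 4 libraries, and control replicate 1 alone had slightly more Ezh1 than Ezh2. The groups overlapped, and a permutation test of a single value cannot pass 0.05 with 3 against 2 libraries, so no test of the ratio is given.

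Eed and Suz12 are the core partners without which neither methyltransferase is active, and both were steadier. Eed (ENSMUSG00000030619, chromosome 7 from 89954654 to 89980983, - strand), which binds methylated lysine 27, had 965, 992 and 1077 normalized counts in heterozygous libraries, against 734 and 949 in controls. All 3 heterozygous libraries were above both controls, the nearest by a narrow margin, and the log2 fold change was 0.27 (95% interval -0.11 to 0.66, limma adjusted p = 0.314). Leaving out control replicate 1 gave 0.09, and leaving out control replicate 2 gave 0.46, which passed (limma adjusted p = 0.0128). Eed and Suz12 share 261 and 178 exonic bases, and Ezh2 174, with little-read genes on the opposite strand. Suz12 (ENSMUSG00000017548, chromosome 11 from 79993106 to 80034123, + strand), the scaffold of the complex, had 1576, 1609 and 1521 normalized counts in heterozygous libraries, against 1435 and 1894 in controls. The heterozygous values fell inside the span of the controls, with a log2 fold change of -0.07 (95% interval -0.44 to 0.30, limma adjusted p = 0.784). Its sign turned with the control kept, at -0.27 without control replicate 1 and 0.13 without control replicate 2.

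Jarid2 (ENSMUSG00000038518, chromosome 13 from 44729474 to 44921643, + strand), a cofactor that helps bring PRC2 to its targets, had 998, 1001 and 930 normalized counts in heterozygous libraries, against 1186 and 1387 in controls. Both controls stood above all 3, but in counts they lay farther apart than the lower control lay from the nearest heterozygous library. The means were 976 ± 39.8 (SD, n = 3) in heterozygous libraries and 1286 ± 142 (SD, n = 2) in controls, a log2 fold change of -0.39 (95% interval -0.72 to -0.07, limma adjusted p = 0.139). It was -0.51 without control replicate 1, where it passed (limma adjusted p = 0.0194), and -0.28 without control replicate 2, where it did not (limma adjusted p = 0.0652).

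**Figure D2:**
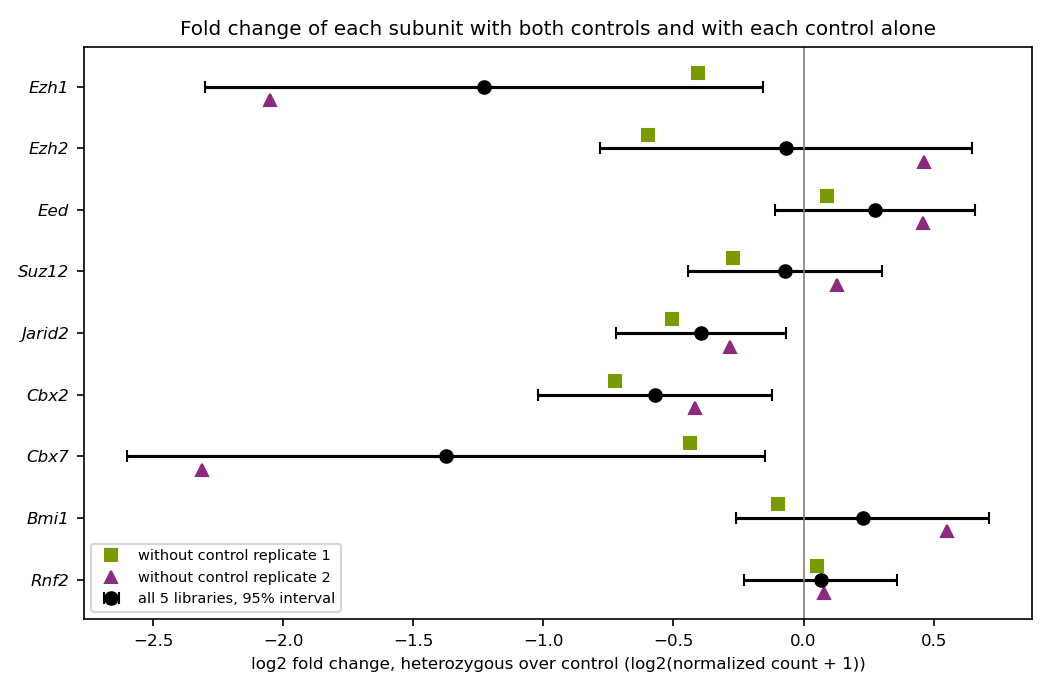
Log2 fold change (x axis, heterozygous over control) of each member with all 5 libraries (circles, 95% interval) and with control replicate 1 (squares) or control replicate 2 (triangles) left out. Jarid2 (-0.51 and -0.28) and Cbx2 (-0.72 and -0.42) kept their side, with a size that depended on the control left out. Ezh1 and Cbx7 kept their side but shifted more in size (-0.40 and -2.05 for Ezh1), and Ezh2, Suz12 and Bmi1 changed side.

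Cbx2 and Cbx7 encode alternative chromodomain subunits that tie canonical PRC1 to the PRC2 mark. Cbx2 (ENSMUSG00000025577, chromosome 11 from 119022962 to 119031270, + strand), the form that compacts chromatin, had 274, 245 and 298 normalized counts in heterozygous libraries, against 363 and 449 in controls. Every heterozygous library lay below both controls, but the controls lay farther apart than the lower control lay from the nearest heterozygous library. The means were 272 ± 26.7 (SD, n = 3) in heterozygous libraries and 406 ± 60.6 (SD, n = 2) in controls, a log2 fold change of -0.57 (95% interval -1.02 to -0.12, limma adjusted p = 0.128). It was -0.72 without control replicate 1 (limma adjusted p = 0.0230) and -0.42 without control replicate 2 (limma adjusted p = 0.0691).

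Cbx7 (ENSMUSG00000053411, chromosome 15 from 79915807 to 79971119, - strand), the form prominent in self-renewing pluripotent cells, had 219, 214 and 179 normalized counts in heterozygous libraries, against 1014 in control replicate 1 and 275 in control replicate 2. As for Ezh1, the heterozygous libraries were below both controls while control replicate 1 was 3.68 times control replicate 2. The log2 fold change was -1.37 (95% interval -2.60 to -0.15, limma adjusted p = 0.159). It was -0.44 without control replicate 1 (limma adjusted p = 0.148) and -2.31 without control replicate 2 (limma adjusted p = 7.7e-05). Cbx7 shares 100 exonic bases with Apobec3 on the opposite strand, and whether counting used the strand is not given in the sources used here, so some reads may be shared. Per kb of exon, Cbx7 over Cbx2 was 0.526, 0.573 and 0.395 in heterozygous libraries, against 1.83 in control replicate 1 and 0.403 in control replicate 2.

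In the authors' deposited table Ezh1 stood at -1.21 on the log2 scale (adjusted p = 0.00718) and Cbx7 at -1.33 (adjusted p = 0.00534). No other member passed in the authors' deposited table, where 12.3% of genes with an adjusted p were under 0.05. Its values rest on these same 5 libraries, so they add no independent evidence.

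Rnf2 and Bmi1 form the ubiquitin ligase at the heart of PRC1. Rnf2 (ENSMUSG00000026484, chromosome 1 from 151458004 to 151500955, - strand), which carries the catalytic RING finger, had 1423, 1380 and 1535 normalized counts in heterozygous libraries, against 1367 and 1392 in controls. It was the steadiest of the 9 members across the 5 libraries, with a log2 fold change of 0.07 (95% interval -0.23 to 0.36, limma adjusted p = 0.748). The interval allows changes of up to 0.36 on the log2 scale. Rnf2 shares 158 exonic bases with Trmt1l on the opposite strand. Bmi1 (ENSMUSG00000026739, chromosome 2 from 18677018 to 18686629, + strand), the RING partner that stimulates Rnf2, had 1877, 1848 and 1956 normalized counts in heterozygous libraries, against 1292 in control replicate 1 and 2026 in control replicate 2. The heterozygous libraries lay close to control replicate 2 and below it. The log2 fold change was 0.23 (95% interval -0.26 to 0.71, limma adjusted p = 0.497), at -0.10 without control replicate 1 and 0.55 without control replicate 2 (limma adjusted p = 0.00297).

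Counted over the members, 3 were called lower without control replicate 1 (Ezh2, Jarid2 and Cbx2) and none higher, beside 7.62% and 9.21% of all tested genes. Without control replicate 2, 2 were called lower (Ezh1 and Cbx7) and 3 higher (Ezh2, Eed and Bmi1), beside 23.5% and 27.2% of all tested genes. Only Ezh2 was called in both fits, with opposite signs. These fits share the heterozygous libraries, and each rests on 1 control.

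**Figure D3:**
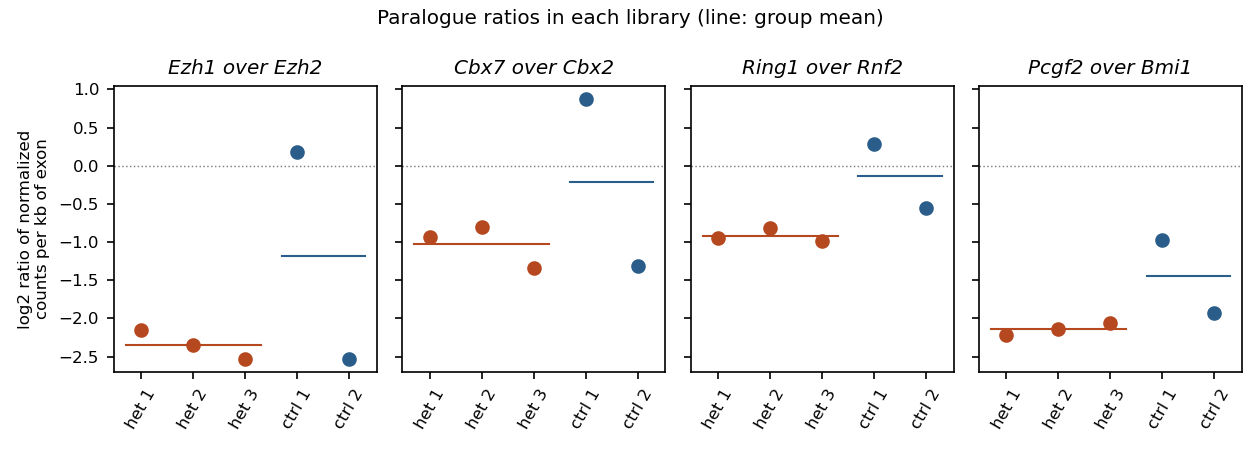
Log2 ratio of normalized counts per kb of exon (y axis) for 4 pairs of alternative subunits in each library, heterozygous libraries left of controls, with lines at group means. For Ezh1 over Ezh2 and Cbx7 over Cbx2 control replicate 2 lay at the level of the heterozygous libraries and only control replicate 1 was above 0.

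The PRC1 ring subunits had paralogues outside the 9 members, and their ratios were lower in all heterozygous libraries than in both controls. Ring1 over Rnf2, per kb of exon, was 0.520, 0.567 and 0.503 in heterozygous libraries, against 1.22 and 0.681 in controls. Pcgf2 over Bmi1 was 0.215, 0.227 and 0.240 in heterozygous libraries, against 0.510 and 0.263 in controls. In both ratios control replicate 2 was the nearer to the heterozygous libraries. Ring1, the paralogue of Rnf2, had 581, 615 and 607 normalized counts in heterozygous libraries, against 1313 and 745 in controls, with a log2 fold change of -0.72 (limma adjusted p = 0.137). Leaving out control replicate 1 gave -0.31 for Ring1, and leaving out control replicate 2 gave -1.13, which passed (limma adjusted p = 0.000238). Pcgf2, the paralogue of Bmi1, had a log2 fold change of -0.46 (limma adjusted p = 0.161). It was -0.31 with control replicate 1 left out and -0.61 with control replicate 2 left out.

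On the scale of normalized counts per kb of exon, Bmi1 was the most abundant member in heterozygous libraries, at 477 ± 14.1 (SD, n = 3). Rnf2 followed at 350 ± 19.4 and Suz12 at 317 ± 9.0, then Eed at 264 ± 15.4 and Ezh2 at 252 ± 14.7. Jarid2 stood at 100.5 ± 4.09, Cbx2 at 63.9 ± 6.26, Ezh1 at 49.7 ± 3.58 and Cbx7 at 31.5 ± 3.34. Of neighbours in this order only Eed and Ezh2 overlapped between heterozygous libraries. In controls the order was less settled, since Ezh1 stood at 206 in control replicate 1, above Eed and Ezh2, and at 65.7 in control replicate 2, below Cbx2. Exon lengths are those of all annotated exons merged, which differ from the lengths of the transcripts in use.

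The members were set beside marker lists in each library, since levels in a mixed culture follow its cells; in bulk RNA, fewer cells of a type and less RNA per cell cannot be told apart. The 28 S phase genes were all lower in control replicate 1 than in control replicate 2, with a median log2 difference of -1.87, and the 24 genes of G2 and M phase were all lower too, at -1.25. Summed normalized counts of the S phase list were 39181, 36145 and 41977 in heterozygous libraries, against 15184 in control replicate 1 and 51199 in control replicate 2. Between the controls Ezh2 differed the same way as these lists (log2 difference of control replicate 1 over 2 of -1.06), as did Bmi1 (-0.65), Suz12 (-0.40), Eed (-0.37), Cbx2 (-0.30), Jarid2 (-0.23) and Rnf2 (-0.03). Only Ezh1 (1.65) and Cbx7 (1.88) differed the other way. Of all tested genes, 48.5% were higher in control replicate 1, so a shared direction is common. A gap between the controls at least as wide as that of Ezh1 was found in 6.49% of all tested genes, as that of Cbx7 in 4.43%, as that of Ezh2 in 16.7% and as that of Bmi1 in 34.9%. The part of the culture's cycling state in the members' values was not tested.

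Some neuron markers and some genes of hypoxia and glycolysis passed the test, while no member did. Of 20 neuron markers 10 rose and none fell, and their summed normalized counts were 77252, 64200 and 57738 in heterozygous libraries, against 33936 and 41535 in controls; none was at 0 in any library. Of 20 hypoxia and glycolysis genes 11 fell and none rose, with sums of 101215, 96559 and 109807 in heterozygous libraries, against 247971 and 165439 in controls. These counts depended on the libraries kept: with either control left out 16 neuron markers rose, and 17 hypoxia genes fell without control replicate 1 and 19 without control replicate 2. With any 1 heterozygous library left out 0 neuron markers rose, and 1, 1 and 0 hypoxia genes fell without heterozygous replicate 1, 2 and 3. Of 28 S phase genes none passed (limma, 0 at an unadjusted p under 0.05; edgeR and DESeq2 also 0). Of 24 genes of G2 and M phase none passed in limma (1 at an unadjusted p under 0.05; edgeR 0, DESeq2 1). Without control replicate 1, 10 of the S phase and 22 of the G2 and M phase genes were lower and none higher. Leaving out control replicate 2 instead, 28 S phase genes were higher, and 18 of the G2 and M phase genes were higher and 1 lower. Astrocyte markers summed to 99512, 104183 and 84591 in heterozygous libraries and 166937 and 127799 in controls, and 2 of 10 fell (edgeR 2, DESeq2 3); 3 fell without control replicate 1, and 5 did when control replicate 2 was left out. Of 12 oligodendrocyte lineage genes 1 fell (edgeR 1, DESeq2 7), and 5 fell without control replicate 1, while 7 fell and 3 rose without control replicate 2. Of 17 stem cell and radial glia genes 2 fell and none rose (edgeR 2 lower, DESeq2 7 lower and 3 higher). At an unadjusted p under 0.05 (limma) 7 were lower and 3 higher. Their summed normalized counts went the other way from the median, at 252598, 230516 and 258663 in heterozygous libraries, against 182538 and 203831 in controls. The median log2 fold change was -0.47. That list had 6 lower and 2 higher without control replicate 1, and 11 lower and 4 higher without control replicate 2. No gene of these 3 lists passed with any 1 heterozygous library left out. Of the microglia and macrophage list 9 of 14 genes were tested and none passed in limma, with sums of 461, 757 and 901 in heterozygous libraries and 612 and 495 in controls; 1 had an unadjusted p under 0.05, and DESeq2 called 1 and edgeR 0. Of 10 endothelial and mural genes none passed in limma, with 3 at an unadjusted p under 0.05 (edgeR 0, DESeq2 1). The part of these cell types in the members' values was not tested.

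**Figure D4:**
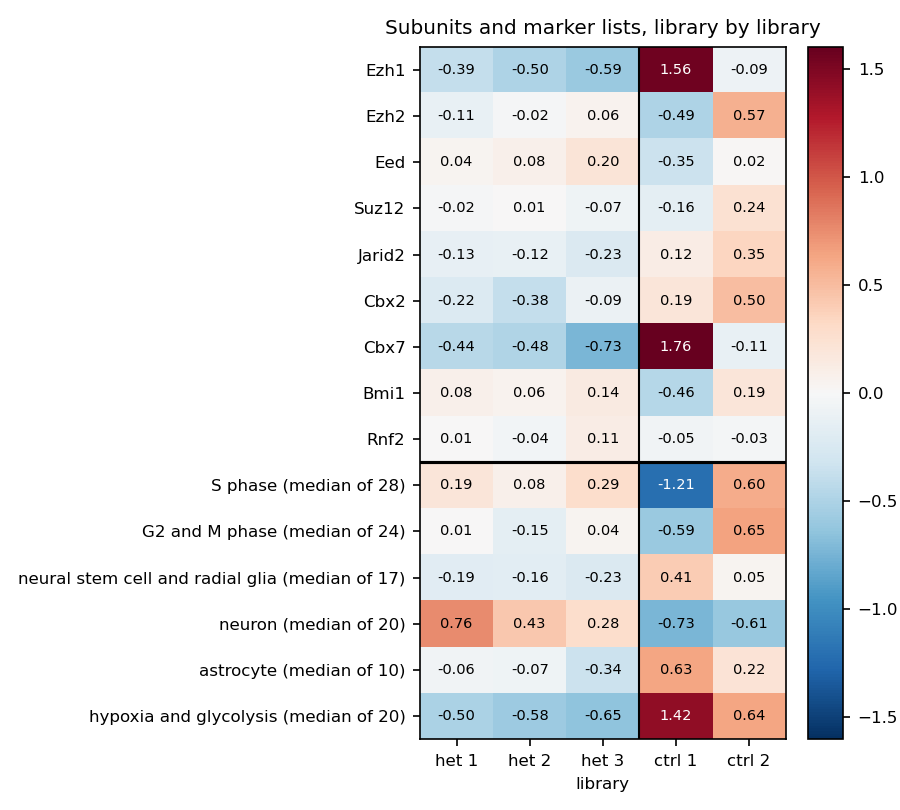
Log2(normalized count + 1) minus the mean of the 5 libraries (colour and printed number) for each member and for the median gene of 6 marker lists, in heterozygous libraries (left) and controls (right). Control replicate 1 is the lowest library for the S phase list and the highest for Ezh1 and Cbx7, while the 3 heterozygous libraries are all above both controls for the neuron list and all below both for the hypoxia list.

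The genes whose profile over the 5 libraries lay nearest to a member were found by the root mean square (RMS) difference of centred log2 values among 12189 tested genes with a mean of at least 50, for members with an SD above 0.3. Nearest to Ezh1 were Mfge8 (RMS difference 0.0287), Zfp874b (0.0469) and Ccdc8 (0.0487). Nearest to Ezh2 were Ints7 (0.0270), Scrib (0.0330) and Pold3 (0.0347), and nearest to Cbx2 were Rnaseh2a (0.0546), Tyro3 (0.0621) and Ptges3l (0.0627). Nearest to Cbx7 were Mrc2 (0.0846), the glucose transporter gene Slc2a3 (0.110) and Ezh1 itself (0.113). The 5 points behind each value share the same libraries, and control replicate 1 lay farthest from the others.

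The rest of the Polycomb system was read from lists of 50 genes, of which 49 were tested and Ezhip had no row. In limma none passed in either direction, with 9 at an unadjusted p under 0.05, a smallest adjusted p of 0.0547 and a median log2 fold change of -0.08. On recovered reads edgeR called 0, and DESeq2 called 1 higher (Rybp) and 5 lower (Ring1, Pcgf5, Bcor, Ogt and Kdm6b), beside 14.4% of all genes called by DESeq2. Without control replicate 1 the list medians were -0.16 (other PRC2), -0.05 (other canonical PRC1), -0.12 (variant PRC1), -0.17 (H2A deubiquitinase) and -0.55 (demethylases). Without control replicate 2 they were 0.10, -0.11, 0.16, 0.16 and -0.65 in the same order. A median near 0 can hide genes that moved in opposite directions. Of the variant PRC1 genes, Tfdp1 stood at 1.29 and Pcgf5 at -1.31 without control replicate 2. Each of these fits rests on 1 control.

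Of the 8 other PRC2 genes tested none passed in limma, with 0 at an unadjusted p under 0.05, and edgeR and DESeq2 also called 0; the median log2 fold change was 0.07, and -0.16 with control replicate 1 left out. The histone chaperones Rbbp7 and Rbbp4 had log2 fold changes of 0.26 and 0.21, neither past the threshold. Both lost that direction without control replicate 1, at -0.0034 for Rbbp7 and -0.07 for Rbbp4, and passed without control replicate 2, at 0.52 and 0.49 (limma adjusted p = 0.00501 and 0.00837). The accessory proteins Phf1 and Lcor had -0.33 and -0.34. Mtf2, a further accessory protein, had -0.22, which was -0.46 without control replicate 1 (limma adjusted p = 0.0396) and 0.0087 without control replicate 2. Of 11 other canonical PRC1 genes none passed in limma, with 2 at an unadjusted p under 0.05 (edgeR 0, DESeq2 1), among them Ring1 above. Cbx6, a further chromodomain subunit, was at 4169, 4234 and 3855 normalized counts in heterozygous libraries, against 2780 and 3677 in controls, with a log2 fold change of 0.35 (limma adjusted p = 0.211); leaving out control replicate 1 gave 0.15, and leaving out control replicate 2 gave 0.55, which passed (limma adjusted p = 0.00337). Scml2, a Polycomb-associated protein, had -0.46.

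Of 17 variant PRC1 genes none passed in limma, with 4 at an unadjusted p under 0.05 (edgeR 0, DESeq2 3). Rybp, which replaces the chromodomain subunit in variant PRC1, had 858, 815 and 747 normalized counts in heterozygous libraries, against 333 and 553 in controls. All heterozygous libraries were above both controls, and the log2 fold change was 0.91 (limma adjusted p = 0.0828), at 0.54 with control replicate 1 left out and 1.27 with control replicate 2 left out. Bcor, a corepressor of variant PRC1, had 783, 857 and 734 normalized counts in heterozygous libraries, against 1301 and 1108 in controls. Its log2 fold change was -0.60 (limma adjusted p = 0.0750), at -0.49 without control replicate 1 and -0.72 without control replicate 2. Pcgf5, a RING partner of variant PRC1, had a log2 fold change of -0.89 (limma adjusted p = 0.106). Leaving out control replicate 1 gave -0.48 for it, and leaving out control replicate 2 gave -1.31. Mga, of the PRC1.6 form, had -0.58 (limma adjusted p = 0.169), at -0.24 without control replicate 1 and -0.93 without control replicate 2.

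**Figure D5:**
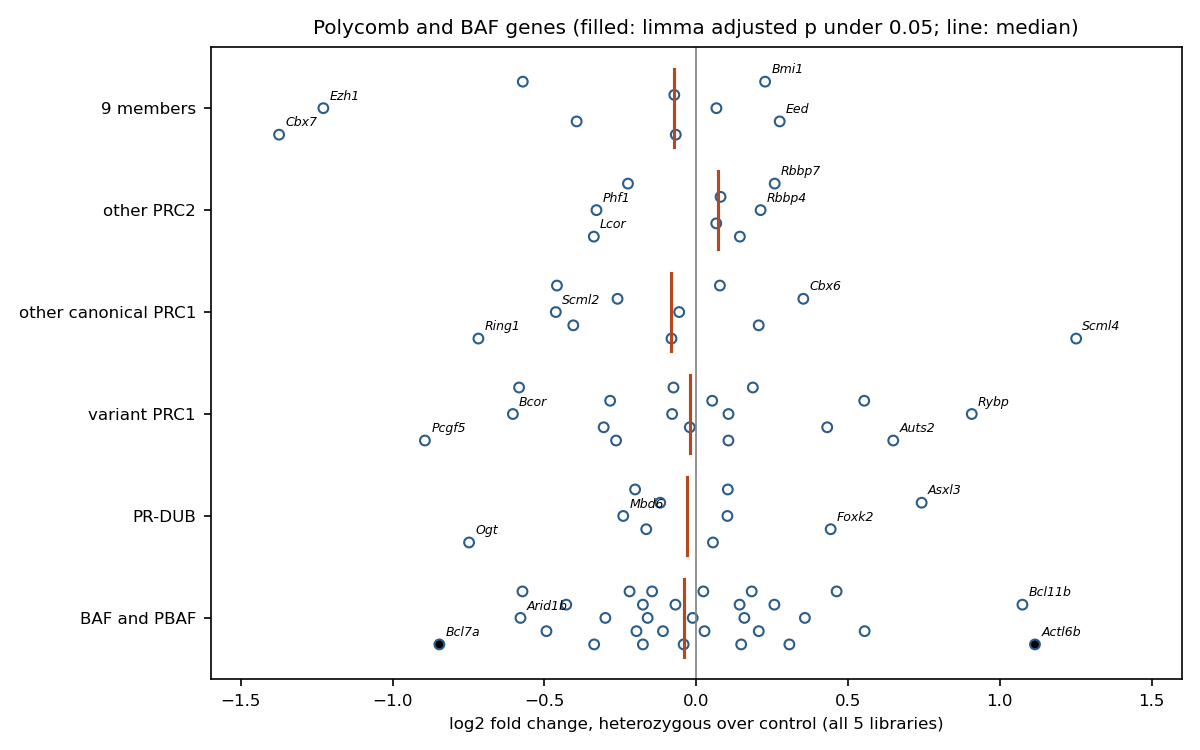
Log2 fold change (x axis, heterozygous over control, all 5 libraries) of the members, the other Polycomb genes and the BAF subunits, with 1 point a gene, medians as lines and filled points for genes that passed the test. Filled points appear only among BAF subunits (Actl6b and Bcl7a), and the medians of the 6 rows run from -0.08 to 0.07; the demethylases are not drawn.

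Enzymes that undo the Polycomb marks were read too, and of the lysine 27 demethylase list (Kdm6a, Kdm6b and the Y-linked Uty) none passed in limma, with 1 at an unadjusted p under 0.05 (edgeR 0, DESeq2 1). Kdm6b, which removes methyl groups from lysine 27, had 2160, 2151 and 2089 normalized counts in heterozygous libraries, against 3131 and 3118 in controls. Both groups were tight and did not overlap, and the log2 fold change was -0.55 (SE 0.11, limma adjusted p = 0.0547), the same to 2 digits with either control left out. Its X-linked relative Kdm6a, which escapes X inactivation, had 695, 1051 and 641 normalized counts in heterozygous libraries, against 1223 and 918 in controls; the high heterozygous value was that of replicate 2, the library with no Uty reads. Of 10 genes of the H2A deubiquitinase complex PR-DUB and its partners none passed in limma, with 2 at an unadjusted p under 0.05 (edgeR 0, DESeq2 1). Ogt, a glycosyltransferase bound by the complex, differed by -0.75 on the log2 scale (limma adjusted p = 0.0775) and the subunit gene Asxl3 by 0.74 (limma adjusted p = 0.167). With control replicate 1 left out these were -0.50, which passed (limma adjusted p = 0.0332), and 0.43, which did not (limma adjusted p = 0.253).

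On the opposing side, 31 BAF and PBAF subunits had a median log2 fold change of -0.04; 1 rose (Actl6b, a neuronal subunit, 1.12, limma adjusted p = 0.0486), 1 fell (Bcl7a, -0.85, limma adjusted p = 0.0410) and 29 did not pass. Of all tested genes 2.84% were called by limma in either direction. Neither limma call among these subunits held with any 1 heterozygous library left out. On recovered reads edgeR called 0 of the subunits higher and 1 lower. DESeq2 called 1 higher and 3 lower, beside 14.4% of all genes called by DESeq2. The list's median turned with the control left out, at -0.22 (control replicate 1) and 0.13 (control replicate 2). The difference between BAF and Polycomb genes was not tested.

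Genes that Polycomb classically silences were mostly off or did not pass. No Hox gene of 39 reached the mean of 10 needed for testing, 25 had 0 reads in all 5 libraries, and the highest value of any in a library was 4.51 normalized counts. Of 25 other developmental regulators 4 were tested and none passed in limma, with all 4 at an unadjusted p under 0.05 (edgeR 0, DESeq2 3). Lhx5, a LIM-homeodomain factor of forebrain neurons, had 63.9, 48.1 and 43.8 normalized counts in heterozygous libraries, against 6.98 and 19.0 in controls (log2 fold change 2.05, limma adjusted p = 0.0680). Nkx2-2 had -0.61 (limma adjusted p = 0.0890), Pax2 had 2.54 (limma adjusted p = 0.137) at no more than 19.2 normalized counts in any library and did not pass without control replicate 1 (limma adjusted p = 0.175), and the proneural gene Neurog2 had -1.56 (limma adjusted p = 0.147). Leaving out control replicate 1 gave Neurog2 -0.57, and leaving out control replicate 2 gave it -2.55.

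Of 5 cyclin-dependent kinase inhibitors that Polycomb restrains none passed in limma, with 1 at an unadjusted p under 0.05 (edgeR 0, DESeq2 1). Cdkn2a, the classical Bmi1 target, had 308, 291 and 361 normalized counts in heterozygous libraries, against 325 in control replicate 1 and 551 in control replicate 2. The groups overlapped, and the log2 fold change of -0.41 (limma adjusted p = 0.351) became -0.79 when control replicate 1 was left out and -0.03 when control replicate 2 was. Counts per gene do not separate the p16 and p19 transcripts of this locus. Cdkn1c, an inhibitor of growth that is imprinted, had 36.2, 25.8 and 24.4 normalized counts in heterozygous libraries, against 356 and 89.4 in controls. All heterozygous libraries were below both controls, and the log2 fold change was -2.61 (limma adjusted p = 0.0643), at -1.62 without control replicate 1 and -3.60 without control replicate 2.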

How the data were processed

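RNA was sequenced from 5 neurosphere libraries. The submitters' processing notes name STAR, DESeq2 and mm10; the sources used here give no versions, counter, annotation or strand setting. What the authors deposited for each library is a normalized signal: read counts per gene over 1 size factor a library, as the values themselves show, which gave whole reads for 100% of values within 0.001 read. Beside these the authors deposited their own DESeq2-style comparison: a log2 fold change, a Wald score, a p-value and an adjusted p-value for each gene.

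Log2(normalized count + 1) was tested with limma (version 3.58.1, R 4.3.3, trended variance, two-sided) over 16411 genes averaging 10 or more. Such fold changes understate low genes. All p-values were adjusted over that table at 0.05. Alternatives used edgeR 4.0.16, which called 409 genes on the recovered reads, and DESeq2 1.42.0. The scripts were tested on simulated data. Coordinates and exon lengths came from GENCODE M21 (mm10). All members were named; from each list, called genes or up to 4 with the smallest p were named, and other names were taken after their values were seen. The members and lists were chosen with earlier results of these data known.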

Additional observations from a re-analysis of the deposited data

How the results depend on the processing

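The members' calls depended on the controls and on the tool. With all 5 libraries, 311 genes were called higher and 155 lower. The counts were 54 and 21 without the variance trend, 79 and 38 with library weights and 1174 and 1151 with DESeq2 on recovered reads. With 1 library left out they ran from 0 to 4465 higher and from 0 to 3855 lower; the lowest came without a heterozygous library, which leaves 2 against 2, and the highest without control replicate 2. Members called ran from 0 to 3 higher and from 0 to 3 lower with 1 library left out, and DESeq2 called 2 lower, Ezh1 (log2 fold change -1.47, adjusted p = 0.0101) and Cbx7 (-1.68, adjusted p = 0.00820). With 1 library left out, log2 fold changes ran from -2.05 to -0.40 for Ezh1, -0.60 to 0.46 for Ezh2, 0.090 to 0.46 for Eed, -0.27 to 0.13 for Suz12, -0.51 to -0.28 for Jarid2, -0.72 to -0.42 for Cbx2, -2.31 to -0.44 for Cbx7 and -0.10 to 0.55 for Bmi1. Both ends came without 1 of the controls, and the cause was not tested. Ezh2, Suz12 and Bmi1 changed sign. Of the 144 member fold changes under alternatives, 132 kept their sign and their side of the threshold, 10 passed it and 3 turned; Ezh2 without control replicate 2 did both.

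The labels tie replicate numbers to no litter, batch or day, so the numbers were not taken as pairs. Deviations from the group means correlated at 0.03 between libraries numbered 1 and at -0.04 between those numbered 2. With 2 controls their deviations mirror each other, so both values rest on the same control contrast and cannot settle the pairing. With the replicate block 0 genes were called higher and 1 lower, and no member.

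A member's value rested on 184 to 2812 reads in a library; the number of controls, 2, limits how closely any difference can be placed.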
